A study of Homo sapiens with 2 samples.

Results

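Long noncoding RNA genes with an array signal of at least 100 units were compared between K562 cells that had received a miR-34a mimic and K562 cells that had received a control mimic. Members were selected on their deposited signal and their name, and not on any test: they were probe sets listed under a single gene symbol of a long noncoding RNA form: LINC, SNHG, a microRNA number followed by HG, or a gene name ending in -AS1, -AS2, -IT1 or -DT. The limit, 100 on at least 1 of the 2 arrays, uses the values that are compared, so the ratios below are descriptions. There were 270 such genes, of 19775 that had a probe set of their own, and 307 such probe sets, among 54675 in all, and 304 of the 307 carried a gene ID that RefSeq classes as long noncoding RNA. Symbols of these forms covered 2506 probe sets, of which 2199 read under 100 on both arrays and are not described here.

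K562 is a human erythroleukemia line grown in suspension. One culture received 3 µg of miR-34a mimic by nucleofection, an electrical transfer of nucleic acid, and the other 3 µg of a control mimic without homology to human genes, and RNA was taken after 24 hours. Each group held 1 Affymetrix array, so every value is a single measurement without a replicate, precision is limited by having 2 arrays, and no test between groups was possible. In bulk RNA, fewer cells of a kind and less RNA per cell cannot be told apart. The probe sets read arbitrary units, with medians of 39.5 (control) and 40.1 (miR-34a), and 27 bacterial control probe sets of low signal reached at most 75.4, below the limit of 100. Of 8 K562 markers listed to check the cell line, 7 had a probe set of their own and all 7 read over 100, among them HBE1 (embryonic globin) at 10516 and 11843 and GATA1 (erythroid transcription factor) at 1187 and 1395. On the brightest probe set of each gene, all 7 had log2 ratios of miR-34a over control above 0. Past 1.5-fold was 1, the embryonic globin HBZ, at 4258 and 7672 (0.84). A dimmer probe set of TAL1, another of the 7, read 262.1 and 245.2 (-0.096). Of 8 markers of other cell types, CD3E, CD14, MPO and KRT5 read at most 36.1, while EPCAM read 1426 and 653.7, PECAM1 190.6 and 161.5, and COL1A1 120.8 and 118.6 (control, then miR-34a). PECAM1 and COL1A1 passed 100 on 1 probe set each, and their others read at most 73.3 and 40.9. The COL1A1 probe set over 100 is an _x_at set, where some probes also match other transcripts. Whether the differences in HBZ and EPCAM bear on the long noncoding RNAs was not tested.

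Long noncoding RNAs are transcripts, usually spliced and polyadenylated, that are not known to be translated into proteins of ordinary length. The symbol forms say where a gene lies or what it carries. LINC genes lie between protein-coding genes, -AS genes run on the strand opposite a coding gene, -IT genes lie within an intron of one, and -DT genes start next to a coding gene and run away from it. SNHG transcripts carry small nucleolar RNAs (snoRNAs, guides of ribosomal RNA modification) in their introns. Transcripts of the MIR host form are named for a microRNA whose hairpin lies within them. A microRNA such as miR-34a lowers transcripts that pair with its seed, bases 2 to 8 of the mature strand, and a transcript without a coding sequence can carry such a match too.

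The mature sequences below are those of miR-34a-5p and of the microRNAs that the host transcripts among the members are named for. They were taken from RefSeq (GRCh38.p14), with the seed in capitals, 5′ to 3′. The letters of the mimic itself were not used here. Of 6 host genes, 5 matched a mature microRNA (MIR3667HG was the sixth).
miR-34a-5p (chr1:9151735-9151756, minus strand): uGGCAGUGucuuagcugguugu
miR-3945, host MIR3945HG (chr4:184851066-184851088, minus strand): aGGGCAUAggagaggguugauau
miR-3681-5p, host MIR3681HG (chr2:12199138-12199159, plus strand): uAGUGGAUgaugcacucugugc
miR-3681-3p, host MIR3681HG (chr2:12199174-12199195, plus strand): aCACAGUGcuucauccacuacu
miR-1915-3p, host MIR1915HG (chr10:21496576-21496595, minus strand): cCCCAGGGcgacgcggcggg
miR-1915-5p, host MIR1915HG (chr10:21496609-21496630, minus strand): aCCUUGCCuugcugcccgggcc
miR-570-5p, host MIR570HG (chr3:195699425-195699446, plus strand): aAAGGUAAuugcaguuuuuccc
miR-570-3p, host MIR570HG (chr3:195699460-195699481, plus strand): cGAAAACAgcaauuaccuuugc
miR-4500, host MIR4500HG (chr13:87618671-87618687, minus strand): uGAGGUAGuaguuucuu
None of the 8 hosted microRNAs had the seed of miR-34a-5p. The seed of miR-4500 is shared by 10 other mature microRNAs in the table, among them the let-7 family, and that of miR-3681-3p by 2, miR-128-3p and miR-216a-3p.

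The comparison asked which of these transcripts differed in level between the cultures. As a set they lay close to no difference. The median log2 ratio of miR-34a over control was 0.043 over the 307 probe sets, against -0.012 over all 14569 probe sets with 1 symbol and a signal of at least 100. Ratios were taken on the scale log2(signal + 14.9) and centred on the median of the brighter probe sets, which understates the differences of dim transcripts. Of the members 170 (55.4%) lay above 0 and 137 below, and 95.1% lay within 1.5-fold. Over all those probe sets 47.9% lay above 0 and 93.2% within 1.5-fold. At least 1.5-fold higher with miR-34a were 11 probe sets (3.58%), where the background over all probe sets of that signal was 3.29%. At least 1.5-fold lower were 4 (1.30%), against 3.53%. Past 2-fold lay 2 probe sets on the higher side (0.651%, background 0.666%) and 0 on the lower (background 0.659%). The share of higher members was near the background. The share of lower members was under it, on a count of 4 and without a test. With 4 times the pseudocount, the members past 1.5-fold were both LINC00467 probe sets, LINC01920, RGPD4-DT, CAPSL-DT and HECW2-AS1 on the higher side and SNHG32 on the lower.

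The rule itself acted on these counts. A probe set that passed 100 on 1 array alone had to differ in that direction. Both arrays passed for 248 members, the miR-34a array alone for 40 and the control array alone for 19, while over all probe sets the numbers were 13189, 763 and 617. Among the 248 members that passed on both arrays the median was 0.016, and 7 were at least 1.5-fold higher and 2 lower. The background for such probe sets was 2.4% higher and 2.91% lower. Near the limit, the 13 members whose brighter array read less than 3 units above it had log2 ratios of -0.67 to 0.55, and the 12 probe sets less than 3 units below it had -0.48 to 0.65.

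The members were dimmer than other probe sets, with a median control signal of 160.0 against 280.8, so they were also counted by signal. With the brighter array at 100 to under 150 there were 122 members, 4 at least 1.5-fold higher and 2 lower, against backgrounds of 3.72% and 3.24%. At 150 to under 300 there were 125, with 5 higher and 0 lower, against 3.71% and 3.31%. At 300 or more there were 60, with 2 higher and 2 lower, against 2.89% and 3.76%. The spread of log2 ratios was 0.31, 0.26 and 0.28 (SD over members) in these ranges, and 0.33, 0.32 and 0.32 over all probe sets.

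**Figure D1:**
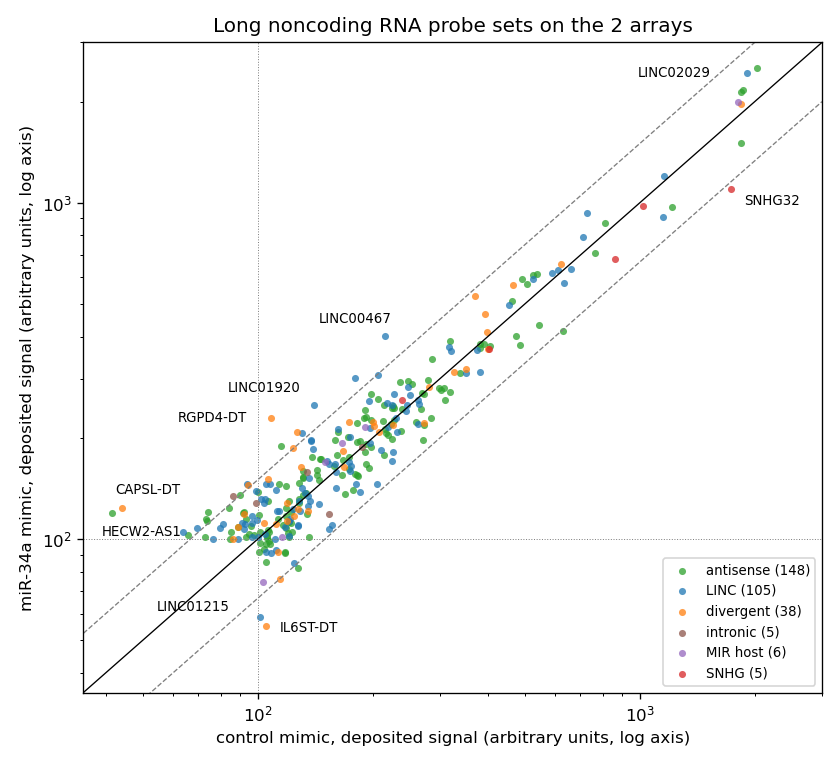
Deposited signal of the 307 long noncoding RNA probe sets on the control array (horizontal) and the miR-34a array (vertical), both in arbitrary units on log axes, coloured by symbol class with the number of probe sets; the solid line marks equal signal, the dashed lines 1.5-fold in signal and the dotted lines the limit of 100. Most points lie within the dashed lines, and HECW2-AS1 and CAPSL-DT, dim on the control array, lie farthest above them.

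On the log2(signal + 14.9) scale, HECW2-AS1 and CAPSL-DT passed 2-fold. HECW2-AS1, antisense to the ubiquitin ligase gene HECW2, read 41.5 with the control mimic and 119.8 with miR-34a, a log2 ratio of 1.25. CAPSL-DT, which starts beside the calcyphosine-like gene CAPSL, read 44.2 and 124.1, a log2 ratio of 1.23. Both control signals lay under the 75.4 reached by bacterial control probe sets, and both genes have a single probe set, so the size of each difference rests on 1 dim measurement. Both passed the limit on the miR-34a array alone, which fixed their direction. With 4 times the pseudocount both ratios were 0.82, under 2-fold. The genes they are named for stayed under 100: HECW2 read at most 54.0 and CAPSL at most 9.53 on either array.

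The windows from 250 bases before to 50 after the RefSeq start of these genes are given because they are the members with the largest ratios. Capitals mark AGATAA or its reverse complement TTATCT, the core bound by GATA factors; CACGTG, the E-box of MYC-like factors, was searched for on both strands too. The letters of these motifs do not overlap each other.
HECW2-AS1 (GRCh38.p14, chr2:196259774-196260073, plus strand): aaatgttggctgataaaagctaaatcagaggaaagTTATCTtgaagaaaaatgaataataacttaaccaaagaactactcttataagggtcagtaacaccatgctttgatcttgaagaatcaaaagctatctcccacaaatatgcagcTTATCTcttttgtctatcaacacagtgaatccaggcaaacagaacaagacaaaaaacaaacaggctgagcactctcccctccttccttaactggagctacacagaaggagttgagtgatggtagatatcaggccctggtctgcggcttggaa
CAPSL-DT (GRCh38.p14, chr5:35938551-35938850, plus strand): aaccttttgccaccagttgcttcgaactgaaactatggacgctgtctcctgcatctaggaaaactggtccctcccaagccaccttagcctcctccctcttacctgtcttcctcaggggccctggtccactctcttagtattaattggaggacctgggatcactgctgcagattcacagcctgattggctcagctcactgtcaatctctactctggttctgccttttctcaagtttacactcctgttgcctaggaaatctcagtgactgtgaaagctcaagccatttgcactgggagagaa
The HECW2-AS1 window held 2 GATA matches, and the CAPSL-DT window held 0 of either motif. A GATA match was found in 10.1% of 228 member windows, for the 199 member genes that matched the table, and in 10.3% of all 35116 windows. The E-box was found in 5.26% and 7.26%. A match describes letters only and not a bound site.

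Base composition differed in description between the classes. The median GC content of the windows was 68.0% for divergent, 64.3% for antisense and 56.2% for LINC members, against 58.7% over all windows. CpG pairs numbered 9.67 per 100 bases (median) in divergent, 8 in antisense and 3.17 in LINC windows.

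**Figure D2:**
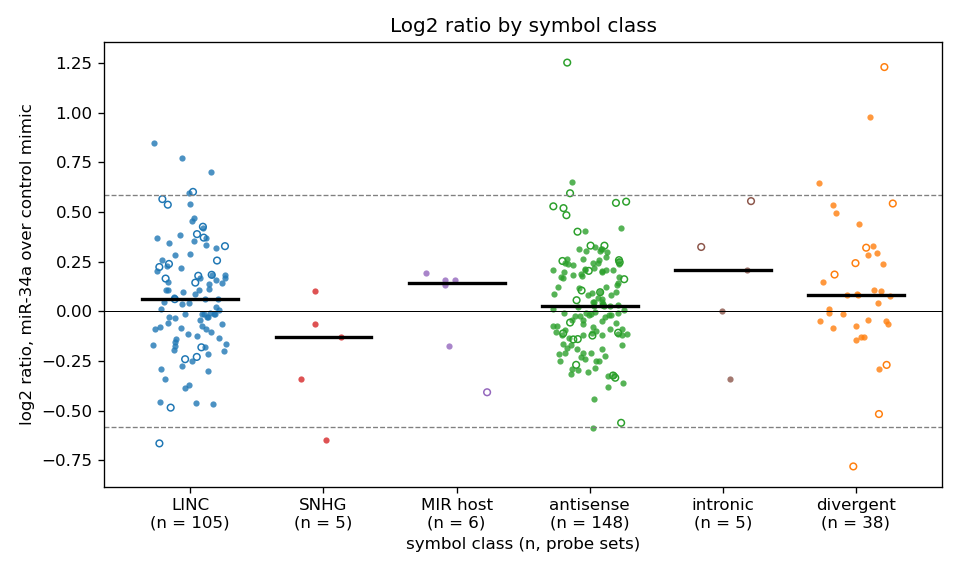
Log2 ratio of miR-34a over control (vertical) for each member probe set by symbol class; filled points passed 100 on both arrays, open points on 1 array, black bars are class medians and dashed lines mark 1.5-fold. The SNHG median, -0.13, lies below 0 and the other class medians lie between 0.025 and 0.21; over probe sets that passed on both arrays, the LINC, antisense and intronic medians are 0.013, 0.0072 and 0.0017.

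LINC transcripts made up 105 probe sets for 95 genes. Their median log2 ratio was 0.060, with 59 above 0 and 46 below. It was 0.013 over the 85 that passed on both arrays. Of the 105, 5 were at least 1.5-fold higher and 1 lower, against backgrounds of 3.29% and 3.53%. Within 1.5-fold lay 94.3%, against 93.2% over all probe sets of that signal. LINC00467, a transcript known also to encode a small mitochondrial peptide, had the highest ratio, and both of its probe sets showed it. The first read 216.0 (control) and 402.3 (miR-34a), and the second 179.4 and 301.5, for log2 ratios of 0.85 and 0.70 (SD 0.11, 2 probe sets). LINC01920 read 140.5 and 250.9, a log2 ratio of 0.77 on its single probe set. On the lower side, LINC01215 read 101.3 and 58.6 (-0.67), LINC01222 read 124.4 and 84.9 (-0.49) and LINC00881 read 153.7 and 107.5 (-0.47), each on 1 probe set. LINC01215 and LINC01222 passed on the control array alone, which fixed their direction, and the miR-34a signal of LINC01215 lay within the range of the bacterial probe sets. The brightest of the class differed less: LINC02029 read 1912 and 2425, a log2 ratio of 0.34, and LINC02097 read 1156 and 1200, a ratio of 0.048.

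SNHG transcripts were the class with the highest control signals, at a median of 862.0, and its median log2 ratio was -0.13, below 0 where the others were above. With 1 value per gene it was -0.20, and over the 2 probe sets with a plain _at name it was -0.015. Only 5 probe sets for 4 genes carried an SNHG symbol alone. SNHG32 read 1729 with the control mimic and 1103 with miR-34a, a log2 ratio of -0.65 and the only SNHG member past 1.5-fold. Its probe set is of the _s_at kind, whose probes match more than 1 transcript. SNHG17 read 862.0 and 680.2 on 1 probe set and 402.7 and 367.8 on another, for ratios of -0.34 and -0.13 (SD 0.15, 2 probe sets). SNHG19 read 1022 and 979.5 (-0.065), and SNHG33 read 239.3 and 258.7 (0.10), the one SNHG member above 0. These 5 values had a range that crossed 0.

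snoRNA host transcripts commonly begin with a run of pyrimidines at the start site, the mark of transcripts whose translation follows growth signals, so 50 bases on each side of the RefSeq start are shown. Capitals mark the longest run of C and T that begins within 10 bases of the start, which is the 51st base.
SNHG32 (GRCh38.p14, chr6:31834866-31834965, plus strand): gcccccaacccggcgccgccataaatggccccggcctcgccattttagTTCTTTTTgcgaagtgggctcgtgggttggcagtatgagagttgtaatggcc
SNHG17 (GRCh38.p14, chr20:38435279-38435378, minus strand): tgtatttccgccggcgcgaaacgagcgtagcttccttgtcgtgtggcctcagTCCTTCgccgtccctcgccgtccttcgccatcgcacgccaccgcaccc
SNHG19 (GRCh38.p14, chr16:2155309-2155408, minus strand): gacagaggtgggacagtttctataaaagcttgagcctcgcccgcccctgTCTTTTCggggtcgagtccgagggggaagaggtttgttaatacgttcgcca
The runs were 8, 6 and 7 bases long. The windows of SNHG33, not printed here, held runs of 5 and 4 bases. That run of 5 lay wholly before the start and is among the 4 counted next. A run of at least 5 was found in 4 of the 5 SNHG windows, in 11 of 16 windows (68.8%) of the coding snoRNA host genes described next, in 37.7% of all member windows and in 40.5% of all windows. The SNHG32 run began 2 bases before the start and that of SNHG17 2 bases after it.

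A further 16 probe sets with a signal of at least 100 were listed under 1 SNHG symbol together with symbols of the small RNAs it carries, for 12 SNHG genes, and are counted without names because several symbols share them. Of these, 15 were below 0 and 1 above, with a median of -0.23, a range of -0.58 to 0.026 and 0 past 1.5-fold. Over all probe sets of at least 100, 52.1% were below 0, 3.29% at least 1.5-fold higher and 3.53% lower. This group was formed after its values had been seen. Of 30 protein-coding snoRNA host genes, 14 had a probe set of their own over 100; 10 were below 0 and 4 above, with 0 past 1.5-fold in either direction and a median of -0.085. The lowest were CWF19L1, at -0.37, and HSPA9, a mitochondrial chaperone gene, at -0.31. The highest were CHD8, a chromatin remodeller gene, at 0.21, and IPO7, a nuclear import receptor gene, at 0.15. MYC, whose protein drives ribosome production, read 1814 and 1066, a log2 ratio of -0.76. It had been listed as the regulator of a microRNA host gene and not for the snoRNA hosts. The part of MYC in the values of the SNHG transcripts was not tested.

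Long noncoding RNAs with names of other forms were given from a list of 30, of which 15 had a probe set of their own over 100. Of these 11 were below 0 and 4 above, with a median of -0.21 and 0 past 1.5-fold in either direction. Over all probe sets of at least 100, 52.1% were below 0, 3.29% at least 1.5-fold higher and 3.53% lower. MALAT1, the abundant nuclear transcript, read 13736 and 14402 on its brightest probe set, a log2 ratio of 0.063, and its 12 probe sets lay between -0.23 and 0.23. GAS5, a snoRNA host that builds up in growth-arrested cells, had -0.48 on a probe set that read 163.9 and 114.1. The snoRNA host ZFAS1, chosen here after its values were seen, read 5468 and 4460 and lay between -0.34 and -0.30 on 4 probe sets, and TUG1 read 997.1 and 824.1 and lay between -0.34 and -0.22 on the 4 of its probe sets over 100. UCA1 had the lowest ratio, -0.52, from 230.6 to 157.0. EMX2OS, the antisense partner of a homeobox gene, had the highest, at 0.22. NORAD, a cytoplasmic binder of Pumilio proteins, followed at 0.077 on its brightest probe set. A second NORAD probe set read 122.55 and 94.08 (-0.34), over 100 on the control array alone, which fixed its direction. DLEU2, the host of miR-15a and miR-16, had -0.19. NEAT1 and H19 had 0 probe sets over 100 under a symbol of their own. The SD over these 4 probe sets was 0.025 for ZFAS1 and 0.046 for TUG1, whose 2 probe sets under 100 are left out here. All 4 ZFAS1 probe sets were of the _x_at or _s_at kinds, whose probes can match more than 1 transcript.

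**Figure D3:**
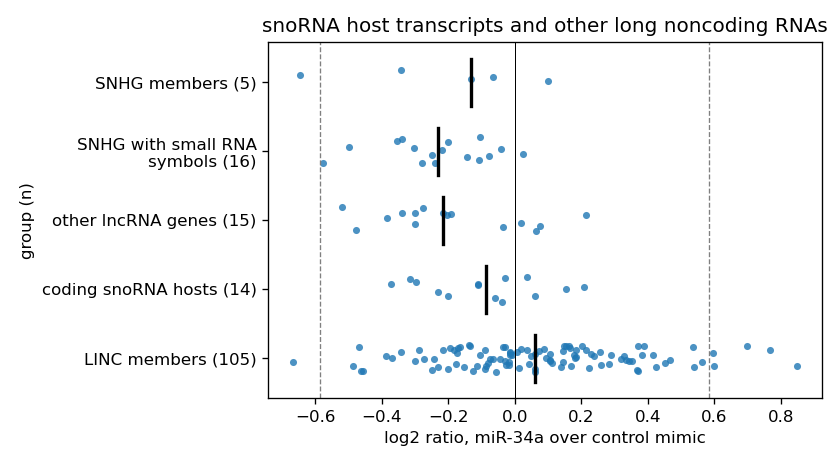
Log2 ratio of miR-34a over control (horizontal) for SNHG members, probe sets listed under an SNHG symbol and symbols of small RNAs, other long noncoding RNA genes, protein-coding snoRNA host genes and LINC members, with the number of points in brackets; black bars are medians, dashed lines mark 1.5-fold and the vertical scatter has no meaning. The first 4 groups have medians of -0.13, -0.23, -0.21 and -0.085, and the LINC members one of 0.060.

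Transcripts of the MIR host form had 6 probe sets over 100, for 6 genes, with 4 log2 ratios above 0, 2 below and 0 past 1.5-fold. Over all probe sets of that signal, 47.9% lay above 0, 3.29% were at least 1.5-fold higher and 3.53% lower. MIR3667HG was the brightest, at 1810 and 1989, a log2 ratio of 0.13. MIR4500HG, whose microRNA has the let-7 seed shown above, read 166.8 and 193.6 (0.19), MIR570HG 191.3 and 216.0 (0.16), and MIR1915HG 150.1 and 169.6 (0.16). MIR3681HG read 116.1 and 101.6 (-0.17). MIR3945HG read 103.5 and 74.7, a ratio of -0.41 that passed the limit on the control array alone. The direction of MIR3945HG was therefore fixed by the limit. Mature microRNAs were not among the values described here. A further 5 probe sets over 100 were listed under a MIR host symbol together with microRNA symbols, and are counted without names. Of these 3 were below 0 and 2 above, from -0.60 to 0.53, and 1 was past 1.5-fold, on the lower side, against the 3.53% given above.

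Antisense transcripts were the largest class, with 148 probe sets for 125 genes. Their median log2 ratio was 0.025, with 79 above 0 and 69 below, and it was 0.0072 over the 120 that passed on both arrays. Of the 148, 3 were at least 1.5-fold higher and 1 lower, against backgrounds of 3.29% and 3.53%. Within 1.5-fold lay 97.3%, against 93.2% over all probe sets of that signal. Besides HECW2-AS1 the highest were BAZ2B-AS1, opposite a bromodomain protein gene, at 115.1 and 189.8 (0.65), and FRMD6-AS1 at 74.3 and 120.2 (0.59). FRMD6-AS1 passed on the miR-34a array alone, with a control signal in the bacterial range, and was short of 1.5-fold with quantile (0.58) or loess (0.58) normalization and with 4 times the pseudocount (0.42). The lowest was MAPKAPK5-AS1, opposite a stress kinase gene, which read 628.2 and 415.2, a ratio of -0.59 that is only just past 1.5-fold and was short of it without centring, with quantile or loess normalization and with 4 times the pseudocount. Its other member probe sets gave -0.10 and, on one that passed on the control array alone, -0.32. FER1L6-AS1, over the limit on the control array alone, read 127.5 and 81.9 (-0.56), and FAM131B-AS2, on an _s_at set, read 271.5 and 196.6 (-0.44). The brightest were FUT8-AS1, opposite a fucosyltransferase gene, at 2034 and 2519 (0.30), and TNFRSF14-AS1 at 1869 and 2172 (0.21). Both of these are _x_at probe sets, a name Affymetrix gives where some probes also match other transcripts. Of the 12 members over 1000 on the control array, 5 were _x_at sets, a kind that made up 6.51% of all members.

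Intronic transcripts had 5 probe sets for 5 genes, 0 of them past 1.5-fold, against backgrounds of 3.29% higher and 3.53% lower. AGPAT4-IT1, within an acyltransferase gene, read 86.3 and 134.2 (0.55), and NPTN-IT1 read 99.0 and 128.1 (0.32). Both passed the limit on the miR-34a array alone, and the class median was 0.21 over all 5 and 0.0017 over the other 3. ALMS1-IT1 read 134.7 and 158.7 (0.21), GABPB1-IT1 187.3 and 188.2 (0.0017), and SND1-IT1 154.0 and 118.9 (-0.34).

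Divergent transcripts had 38 probe sets for 35 genes and a median log2 ratio of 0.082, with 23 above 0 and 15 below. At least 1.5-fold higher were 3, and 1 was lower, against backgrounds of 3.29% and 3.53%. Within 1.5-fold lay 89.5%, against 93.2% over all probe sets of that signal. Among the 30 that passed on both arrays, 2 were higher and 0 lower, against 2.4% and 2.91%. These counts are small and were not tested. After CAPSL-DT came RGPD4-DT, at 108.6 and 228.8, where the signal itself differed 2.11-fold and the ratio after the pseudocount was 0.98. TMEM161B-DT, on an _x_at set, read 126.8 and 207.9 (0.65), and its 3 other probe sets lay within the range of the bacterial probe sets on both arrays. IL6ST-DT was the lowest member of all classes, at 105.4 and 55.3 (-0.78), with the miR-34a signal in the range of the bacterial probe sets. It passed on the control array alone, which fixed its direction, and with 4 times the pseudocount it had -0.53, short of 1.5-fold. ADGB-DT, which also passed on the control array alone, read 114.7 and 75.9 (-0.52). GARS1-DT, named for the glycyl-tRNA synthetase gene, read 272.6 and 220.9 (-0.29), and 119.5 and 113.0 (-0.076) on a second member probe set. The nearest listed starts of GARS1-DT and GARS1 lay 16956 bases apart. The brightest were MAN1B1-DT, also an _x_at set, at 1847 and 1972 (0.089), and PAPOLA-DT, beside a poly(A) polymerase gene, at 621.3 and 658.8 (0.078).

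The symbols of 165 member genes name a neighbouring or overlapping gene, and 101 of these partners had a probe set over 100. In the RefSeq table the pairs differed in position. The spans of 105 of 123 antisense genes overlapped that of the partner, against 2 of 35 divergent genes. All 28 divergent pairs with listed starts ran on opposite strands, with the nearest starts at most 1000 bases apart in 26 of them and a median of 170 bases. For antisense pairs this distance was met in 37 of 82, with a median of 2820 bases. Of these 82 pairs 81 ran on opposite strands, while FAM131B-AS2 was listed on the same strand as FAM131B.

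Members and partners showed no common direction. Of the 101 pairs, 55 had ratios of the same sign and 46 of opposite sign. Some of these members and partners passed the limit on 1 array alone, which fixed their sign and enters the counts and correlations here. Pairs that passed on both arrays were not counted apart. Same signs were found in 41 of 71 antisense, 4 of 4 intronic and 10 of 26 divergent pairs. As a description across genes of the same arrays, the correlation was -0.020 (Pearson) and 0.080 (Spearman) for antisense pairs and -0.52 and -0.25 for divergent pairs. Without IL6ST-DT the divergent values were -0.21 and -0.15 over 25 pairs, so the larger figure rests on that pair. Of the 101 partners 3 were at least 1.5-fold higher and 3 lower, on backgrounds of 3.29% and 3.53%. Among the 3 higher, BRWD1 read 64.0 and 118.4 and passed on the miR-34a array alone.

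A single pair had both genes past 1.5-fold, in opposite directions, and with 4 times the pseudocount IL6ST-DT was no longer past it. The direction of IL6ST-DT was fixed by the limit, as given above, while IL6ST, which encodes the shared receptor subunit gp130 of the interleukin 6 family, read 249.6 and 499.6, a log2 ratio of 0.95. A second IL6ST probe set read 71.3 and 119.9 and passed 100 on the miR-34a array alone. The starts of the pair lie 204 bases apart on opposite strands. TMEM161B-DT, at 0.65, stood beside TMEM161B at -0.47, with a second TMEM161B probe set over 100 on both arrays at -0.35, and starts 171 bases apart. LEF1-AS1, chosen here after its values were seen, read 197.8 and 270.3 (0.42), whereas LEF1, a Wnt pathway transcription factor gene, read 670.1 and 258.4 (-1.33). A second probe set of LEF1-AS1 lay within the bacterial range, at 27.3 and 20.6. Other named members had partners that differed little: MAPKAPK5 read 310.4 and 309.3 (-0.010) and BAZ2B 193.7 and 210.7 (0.11). SND1-IT1 and its host gene SND1, which encodes a nuclease of the RNA-induced silencing complex, lay together at -0.34 and -0.33, and ALMS1, a centrosome gene, had 0.74 on its brightest probe set and 0.19 on another. GARS1 had 0.034, PAPOLA -0.051, MAN1B1 0.23, NPTN 0.22, GABPB1 0.10 and FUT8, over 100 on the miR-34a array alone, 0.31. These are brightest probe sets, and others differed in sign. A second FUT8 probe set, under 100 on both arrays, had -0.43. Dimmer PAPOLA probe sets over 100 on both arrays had 0.12 and 0.095. FRMD6, TNFRSF14, FAM131B, ADGB and AGPAT4 stayed under 100 on both arrays, and FER1L6 and RGPD4 had no probe set with 1 symbol.

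**Figure D4:**
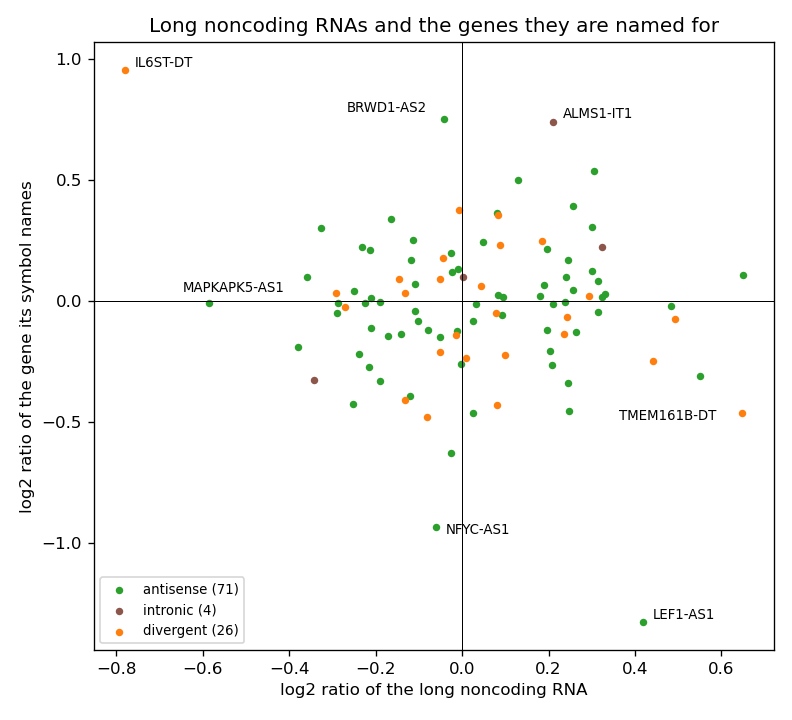
Log2 ratio of each antisense, intronic or divergent long noncoding RNA (horizontal, brightest member probe set) against that of the gene its symbol names (vertical, brightest probe set), for the 101 pairs with both over 100. Points fill all 4 quadrants, with IL6ST-DT at the upper left and LEF1-AS1 at the lower right.

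Agreement between probe sets was the only internal check on these sizes. More than 1 member probe set was present for 29 genes, and in 19 of them (65.5%) all lay on the same side of 0, against 64.7% of 3468 genes over all probe sets of that signal. With exactly 2 probe sets the shares were 69.6% and 70.8%. In 12 of the 29 genes a probe set had passed on 1 array alone, which fixed its sign. Over probe sets that passed on both arrays, 12 of 19 member genes (63.2%) lay on the same side, against 64.1% of 3070 genes. The pooled SD within a gene was 0.22 for members and 0.20 over all genes, which covers probe sets on these arrays and not cultures. Of the 14 member genes past 1.5-fold, 3 had more than 1 member probe set. LINC00467 had the same direction on both, each over 100 on both arrays. MAPKAPK5-AS1 had -0.59 and -0.10 on the 2 that were. LINC00824 had opposite directions: it read 131.0 and 206.3 on 1 probe set (0.60) and 156.5 and 110.4 on the other (-0.46), the widest gap of any member gene.

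Some further members with several probe sets lay within 1.5-fold and are named here after their values were seen. OIP5-AS1, the transcript known as cyrano, read 524.9 and 609.0 on its brightest probe set and lay between 0.20 and 0.31 on 3 (SD 0.055). Its partner OIP5, a centromere protein gene, had -0.21. EPB41L4A-AS1, itself a snoRNA host, read 543.6 and 433.7 on its brighter probe set (-0.32), and 117.8 and 90.7 on the other (-0.33), which passed on the control array alone. LINC00942 lay at 0.54 and 0.56 on 2 probe sets that both passed on the miR-34a array alone, so their shared direction was fixed by the limit. GABPB1-AS1 lay between -0.36 and 0.17 over 3 probe sets, with its brightest, at 487.2 and 377.8, the lowest.

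**Figure D5:**
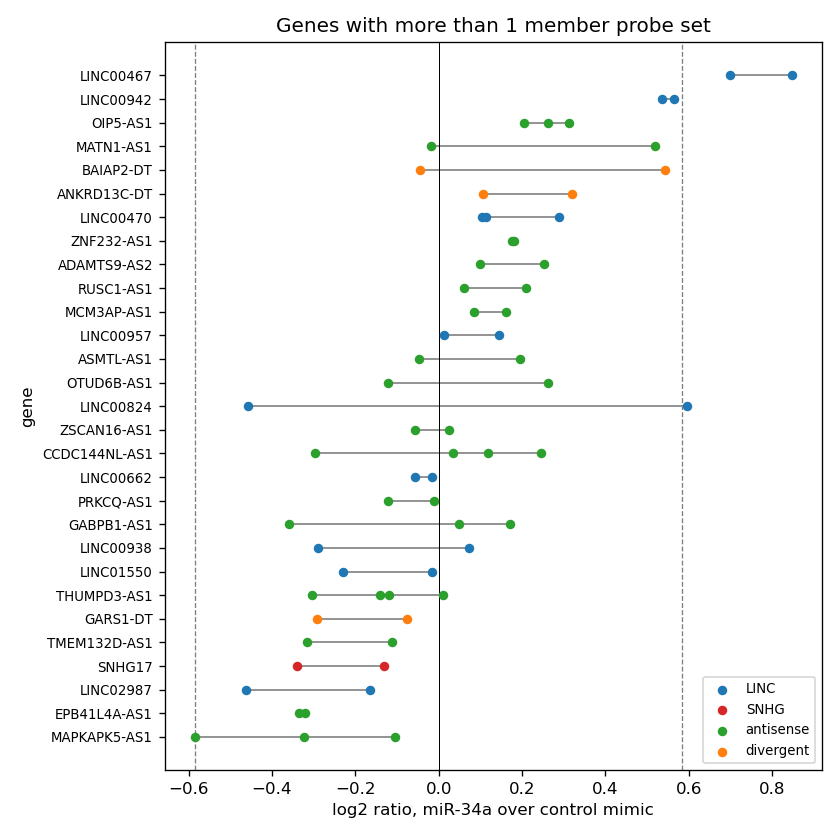
Log2 ratio of miR-34a over control (horizontal) for each probe set of the 29 genes with more than 1 member probe set, coloured by class; a grey line joins the probe sets of a gene and dashed lines mark 1.5-fold. LINC00467 lies past 1.5-fold on both probe sets, and LINC00824 has the longest line, from -0.46 to 0.60.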

How the data were processed

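Both arrays come from 1 deposited table, whose unit is linear intensity per probe set. Per the labels' protocols, 15 µg of total RNA went into each biotin-labelled cRNA target. For the software, background correction and scaling, the sources used here name nothing. The lowest value was 1, held by 3.58% of probe sets (control) and 3.54% (miR-34a), as a floor would leave, and dim probe sets are affected most. 0 columns belonged to other samples.

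Probe sets were named from GEO's platform annotation, which gave 1 symbol for 41091, several for 1801 and none for 11721 of 54613 probe sets other than controls. Ratios are log2(intensity + 14.9), miR-34a less control, where 14.9 is the 25th percentile over both arrays. The median over probe sets at or above the median level, 0.0051, was subtracted. Partners took their brightest probe set. With 1 array a group, probe sets were counted past 1.5-fold and 2-fold. Named were members past 2-fold, the 3 highest, 3 lowest and 2 brightest of each class, all SNHG and MIR host members, the partners of these, and of the lists of other noncoding transcripts and coding hosts the 2 highest and 2 lowest, MALAT1, NEAT1, GAS5, H19, TUG1, DLEU2 and MYC. The members and lists were chosen with earlier results of these data known. The calculation was tested on simulated data. Positions are given for RefSeq sequences only, and matches of transcripts to the miR-34a seed were not analysed here. Alternatives changed the pseudocount, centring, normalization, signal limit, probe sets and symbol rule. Tables were handled with pandas 2.3.3 and NumPy 2.4.6 under Python 3.11.15. Rank correlations came from SciPy 1.17.1, the loess alternative from statsmodels 0.14.6 and plots from matplotlib 3.10.9.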

Additional observations from a re-analysis of the deposited data

How the results depend on the processing

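Over 11 alternatives the median log2 ratio of all members stayed between 0.016 and 0.048, that of the LINC class between 0.0061 and 0.074, of the SNHG class between -0.20 and -0.015 and of the MIR host class between 0.032 and 0.16. The antisense median lay between -0.00043 and 0.031 and changed sign with a limit of 200. The counts of members past 1.5-fold depended on dim values. The 11 higher and 4 lower members became 6 and 1 with 4 times the pseudocount, 7 and 2 with a signal of at least 100 on both arrays, 6 and 2 with a limit of 200, and 195 and 178 of 2506 probe sets with no limit on signal. With a 4 times smaller pseudocount 18 were higher. Of these settings, the background was counted only for a signal of at least 100 on both arrays, as given above. No paired analysis was possible because each group holds 1 array. Arrays without replicates give no error between cultures.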
